A study of Mus musculus with 6 samples.

Results

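The genes described here are the potassium channel genes of the mouse cochlear lateral wall other than Kcnq1, Kcne1 and Kcnj10. They are the genes whose symbol starts with Kcn, 1 or more letters and a digit, and whose mean over the 6 libraries is at least 10 normalised read counts. Of the 17091 genes in the table, 79 have such a symbol. Of these, 21 have a mean under 10 and 3 were left out by name, which leaves 55. RNA was sequenced from the lateral wall of 3 old CBA/CaJ mice, an inbred strain, aged 2.5 years and of 3 young CBA/CaJ mice aged 2 months. Each library is 1 mouse with its 2 cochleas pooled, the labels name no genetic change or treatment, and they do not give the sex. The study's purpose, as its title puts it, is to find transcripts that differ with age in this tissue.

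Potassium channels are membrane proteins that let potassium ions pass selectively, and they set the resting voltage of a cell or carry potassium across an epithelium. In the lateral wall, the stria vascularis secretes potassium into endolymph through channels of its marginal cells, while a channel of its intermediate cells (Kcnj10) generates the voltage that drives hearing, and fibrocytes and root cells of the spiral ligament take potassium up again. The other families are built differently: voltage-gated subunits open on depolarisation, inward rectifiers pass current best near rest, two-pore-domain channels carry leak current, and calcium- or sodium-activated channels open when those ions rise in the cell.

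The reads recovered from the deposited values numbered between 37055355 and 39103398 per library. All 6 libraries held markers of marginal, intermediate and basal cells, of spindle and root cells and of fibrocytes. The source label, in contrast, names auditory nerve cells. None of the markers measured was at 0, though the intermediate cell marker Tyrp1 stood at 0.97 in old replicate 1. Of the 6 basal cell markers listed, 5 were among the genes measured. The summed markers of marginal cells overlapped between the groups, at 158851 to 230551 normalised read counts in the old libraries and 204323 to 236543 in the young ones. Those of fibrocytes were lower in every old library (455245 to 959169 in old and 1038178 to 1170090 in young, 1 of 8 called lower by limma), as were those of cartilage (4713 to 8364 in old and 11031 to 12328 in young) and of osteoblasts and osteocytes (2975 to 3948 in old and 4900 to 7803 in young). Those of neutrophils and marrow (743 to 9772 in old and 317 to 494 in young), of erythroid cells (3001 to 19830 in old and 1213 to 2156 in young) and of lymphocytes (712 to 1418 in old and 387 to 477 in young) were higher in every old library, and the part of any of these cells in the values below was not tested. Xist, the transcript of the inactive X chromosome, stood at 45.2 in old replicate 3 and at 24382 to 29162 in the other 5 libraries. In tissue RNA of this kind, fewer cells of a type and less RNA per cell cannot be told apart. The 3 genes left out by name did not pass the test, with log2 fold changes of -0.20 for Kcnq1, -0.07 for Kcne1 and -0.07 for Kcnj10 (limma adjusted p = 0.479, 0.833 and 0.892).

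Levels between genes are compared per kilobase of annotated exon. On that scale 3 of 54 genes stood far above the rest in both age groups: Kcnk1, a two-pore-domain leak channel, Kcnj16, an inward rectifier that forms mixed channels with the Kcnj10 product, and Kcnj13, an inward rectifier known from ion-transporting epithelia. Kcnk1 averaged 3187 in old and 3762 in young, Kcnj16 2531 in old and 3361 in young, and Kcnj13 1675 in old and 1834 in young, all in normalised read counts per kilobase. Together the 3 made up 78.1%, 71.6% and 69.1% of the summed level per kilobase in old replicates 1, 2 and 3, and 80.5%, 76.9% and 78.3% in young replicates 1, 2 and 3. Of the 1270 exon bases of Kcnj13, 623 are shared with Gigyf2, whose mean was 2286 in old and 2159.6 in young. Without strand, reads there cannot be assigned to 1 of the 2. The level and rank of Kcnj13, and these shares, may therefore include reads of Gigyf2. Kcnk1 and Kcnj16 changed places between libraries, with Kcnj16 above Kcnk1 in young replicate 3 only, and Kcnj13 passed Kcnj16 in old replicate 3 (2194 against 1829 per kilobase) and came close to it in young replicate 1 (3299 against 3411 per kilobase).

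The next 4 genes in the order overlapped each other across libraries. Kcnn2, a small-conductance calcium-activated channel, averaged 397 in old and 453 in young per kilobase, and Kcnk5, a two-pore-domain channel sensitive to extracellular pH, 341 in old and 483 in young. Kcnab1, a cytoplasmic beta subunit of voltage-gated channels, averaged 270.4 in old and 249.6 in young, and Kcnn4, the intermediate-conductance calcium-activated channel of blood and epithelial cells, 284 in old and 166 in young. Kcnq3, a subunit of the neuronal M current, was the lowest over both ages together (0.739 in old and 1.04 in young per kilobase). It was not the lowest in young alone, where Kcnip1 averaged 0.393 per kilobase. Kcnq1ot1, a long antisense RNA whose symbol fits the rule although it encodes no channel, was left out of this ordering. By mean normalised read count, 7 of the 55 genes stood at 1000 counts or more, 20 between 100 and that level, and 28 under 100. Just inside the minimum of 10 were Kcnh1 and Kcnk18 (means of 10.2 and 10.5), and just outside it Kcnn3 and Kcna7 (means of 9.20 and 9.05).

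**Figure D1:**
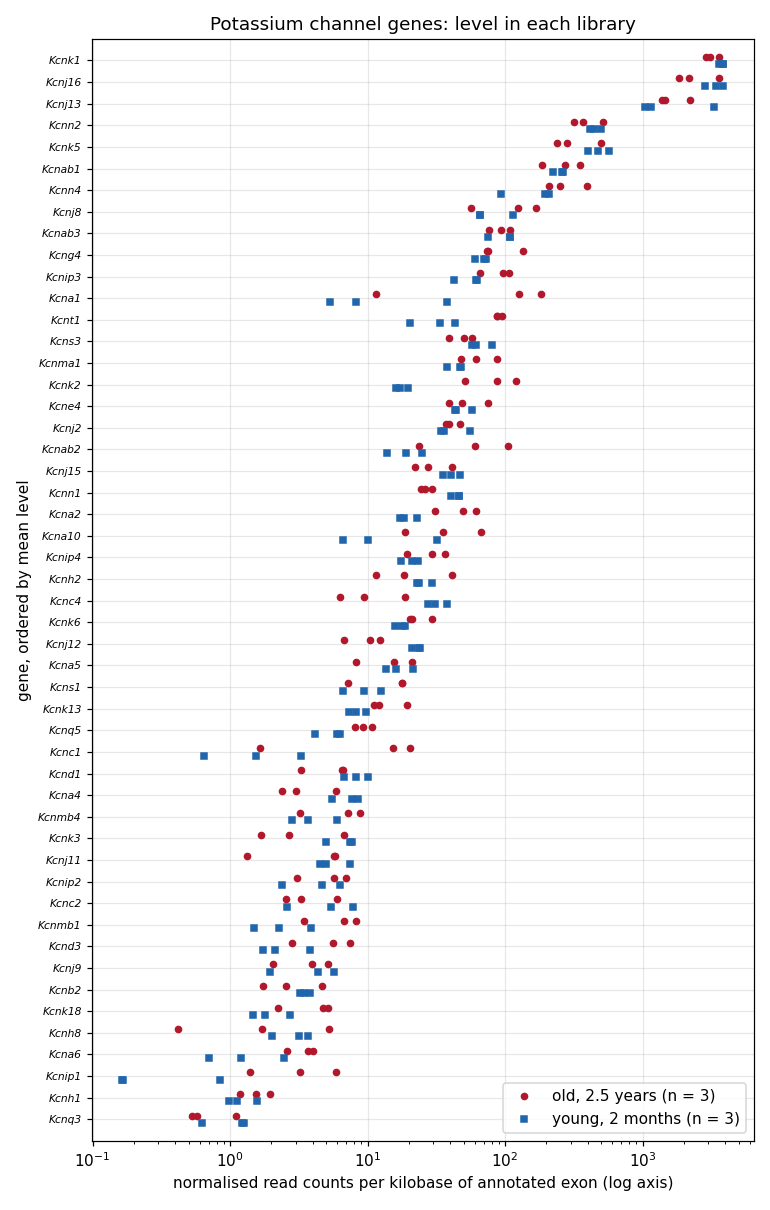
Level of 50 potassium channel genes in each library, in normalised read counts per kilobase of annotated exon on a log axis, with old libraries (circles, 3 mice) drawn just above young libraries (squares, 3 mice) of the same gene. Kcnk1, Kcnj16 and Kcnj13 stand above every other gene, and the points of the old libraries spread more widely than those of the young ones in most rows. The level of Kcnj13 may include reads of Gigyf2, with which it shares exon bases.

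Between old and young lateral wall, Kcnk2, Kcnt1 and Kcna2 rose and 2 genes fell, Kcnc4 among them, while the other 50 genes did not pass the test. The test was limma on values logged after adding 1, with p-values adjusted by Benjamini and Hochberg's method over all 17091 genes and a threshold of 0.05, and log2 fold changes are old minus young on that log2 scale. The 3 genes called higher are 5.45% of the 55, where 2.71% of all genes were called higher, and the 2 called lower are 3.64%, where 2.55% of all genes were called lower. At an unadjusted p under 0.05, 19 of the 55 (34.5%) passed, where 21.3% of all genes did. Without old replicate 1, 8 were called higher and 3 lower, against 3.01% and 1.95% of all genes (4.96% in either direction). The edgeR test on the recovered reads called 3 higher and 1 lower, against 2.76% and 2.24% of all genes, and DESeq2 called 7 higher and 4 lower, against 5.82% and 5.03%.

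The log2 fold changes were positive for 31 genes and negative for 24, with a median of 0.13, where the median over all genes was -0.00. In 11 genes (20.0%) all old libraries lay above all young ones, where this held for 13.2% of all genes, and in 7 genes (12.7%) they lay below, where this held for 12.8%. The groups thus did not overlap in 18 of the 55 (32.7%), where this held for 26.1% of all genes. Of the 55, 4 reached a mean of 10 through 1 age group alone (Kcna6, Kcnh1, Kcnip1 and Kcnk18, each under 10 in young), so these counts describe the genes chosen and are no evidence about channels as a class. The 7 most abundant genes, those with a mean of 1000 or more, were all among those not called, with log2 fold changes from -0.56 to 0.80 and limma adjusted p-values of 0.226 or more.

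**Figure D2:**
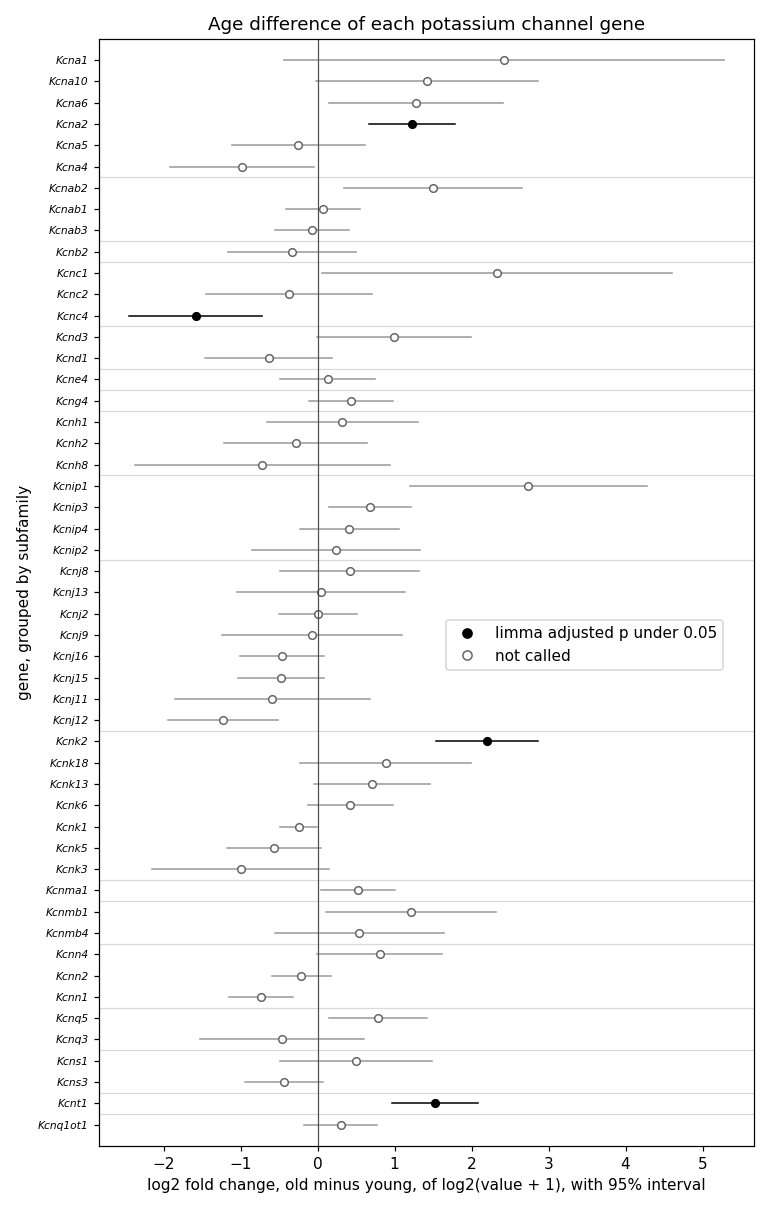
Log2 fold change (old minus young) of 51 of the genes with its 95% interval from limma, grouped by subfamily, with Kcnq1ot1 at the bottom; filled points passed an adjusted p of 0.05. The filled points are Kcnk2, Kcnt1 and Kcna2 on the right and Kcnc4 on the left, and the widest interval is that of Kcna1 (-0.43 to 5.28).

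Of the 7 two-pore-domain genes, 1 rose and none fell, where 2.71% of all genes were called higher and 2.55% lower. Kcnk2, which encodes a leak channel opened by membrane stretch, lipids and heat, stood at 253, 598 and 433 in old replicates 1, 2 and 3, against 85.0, 96.5 and 79.6 in young replicates 1, 2 and 3. Every old library lay above every young one, and old replicate 1 was the lowest of the old. The log2 fold change was 2.20 ± 0.29 (SE; 95% interval 1.54 to 2.87; limma adjusted p = 0.00495), and the old mean was 4.92 times the young mean. It was called in each of 18 alternative analyses (other scalings, pseudocounts, filters and tests, and libraries left out) at a threshold of 0.05, with adjusted p-values from 3.7e-11 to 0.0415. One of them, added after seeing the data, kept old replicate 1 as the only old library, so that its spread comes from the young libraries alone and that mouse is assumed to vary as they do. The exons of Kcnk2 share 604 of 4943 bases with A430027H14Rik, so reads there cannot be assigned to 1 of the 2.

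The 2 most abundant two-pore-domain genes did not pass the test. Kcnk1 stood at 8048, 6897 and 6421 in the old libraries, against 8567, 8651 and 8009 in the young ones, which put 2 old libraries below all the young ones and the first within their range. Its log2 fold change was -0.25 ± 0.11 (SE; 95% interval -0.49 to -0.00; limma adjusted p = 0.226). Kcnk5 stood at 1708, 806 and 968 in the old libraries, against 1621, 1371 and 1936 in the young ones, so that old replicate 1 fell among the young libraries while the other 2 were lower. The estimated log2 fold change was -0.56 ± 0.27 (SE; 95% interval -1.18 to 0.05; limma adjusted p = 0.271), it was called without old replicate 1 (-0.88, limma adjusted p = 0.0259), and its adjusted p ranged from 0.0259 to 0.890 over the 18 alternatives.

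The remaining 4 two-pore-domain genes had low counts and did not pass. Kcnk6, expressed in macrophages among other cells, and Kcnk13, the leak channel of microglia, lay above young in every old library, with log2 fold changes of 0.43 and 0.70 (limma adjusted p = 0.360 and 0.262). Kcnk6 averaged 98.4 ± 21.3 in old and 72.2 ± 6.26 in young and Kcnk13 44.4 ± 14.03 in old and 26.3 ± 3.86 in young (SD, n = 3 each). Beside them, the summed level of 12 macrophage markers was 24950 to 34979 in the old libraries and 7777 to 9297 in the young ones, 7 of the 12 were called higher by limma, and none was at 0. The part of macrophages in these values was not tested. Kcnk3, an acid-sensitive leak channel, and Kcnk18, known from sensory neurons, had log2 fold changes of -1.002 and 0.88 (limma adjusted p = 0.302 and 0.344).

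Of the 5 calcium- and sodium-activated pore genes, 1 rose and none fell, where 2.71% of all genes were called higher and 2.55% lower. Kcnt1, a sodium-activated channel of neurons, stood at 829, 831 and 899 in old replicates 1, 2 and 3, against 194, 319 and 411 in young replicates 1, 2 and 3. The old libraries were nearly equal and all lay above the young ones, which differed among themselves by more than the old ones did. The log2 fold change was 1.53 ± 0.25 (SE; 95% interval 0.97 to 2.09; limma adjusted p = 0.0120), with an old mean 2.77 times the young mean. The call was lost with old replicate 1 as the only old library (1.49, limma adjusted p = 0.0928) and in limma without trend and robust variance (adjusted p = 0.0638), and the adjusted p ranged from 2.8e-07 to 0.0928 over the 18 alternatives.

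Kcnma1, the large-conductance channel opened by calcium and voltage, did not pass the test. It stood at 1037, 806 and 1474 in the old libraries, against 803, 639.9 and 813 in the young ones, and only old replicate 2 overlapped the young range. On the log2 scale the difference was 0.52 ± 0.21 (SE; 95% interval 0.04 to 1.002; limma adjusted p = 0.204), and it was called without old replicate 2 (0.73, limma adjusted p = 0.0483), with a range of 0.0483 to 0.471 over the 18 alternatives. Its exons share 1016 of 16976 bases with 4930519K11Rik.

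The 3 small- and intermediate-conductance genes did not pass either, and they pointed in both directions. Kcnn1 stood at 119, 112 and 135 in the old libraries, against 212, 187 and 211 in the young ones, with every old library below every young one. Its log2 fold change was -0.74 ± 0.19 (SE; 95% interval -1.16 to -0.32; limma adjusted p = 0.0565), and DESeq2 called it lower (adjusted p = 0.00759), in a range of 0.00759 to 0.236 over the 18 alternatives. Kcnn2, the subunit that follows acetylcholine receptors in hair cells, overlapped between the groups, at 2733, 3816 and 2352 in the old libraries, against 3714, 3316 and 3115 in the young ones. Old minus young came to -0.21 ± 0.17 (SE; 95% interval -0.60 to 0.17; limma adjusted p = 0.519). Kcnn4 stood at 1279, 1063 and 2009 in the old libraries, against 1001, 1065 and 479.9 in the young ones, with old replicate 2 among the young values and young replicate 3 the lowest. The fitted log2 fold change was 0.80 ± 0.35 (SE; 95% interval -0.01 to 1.62; limma adjusted p = 0.240).

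**Figure D3:**
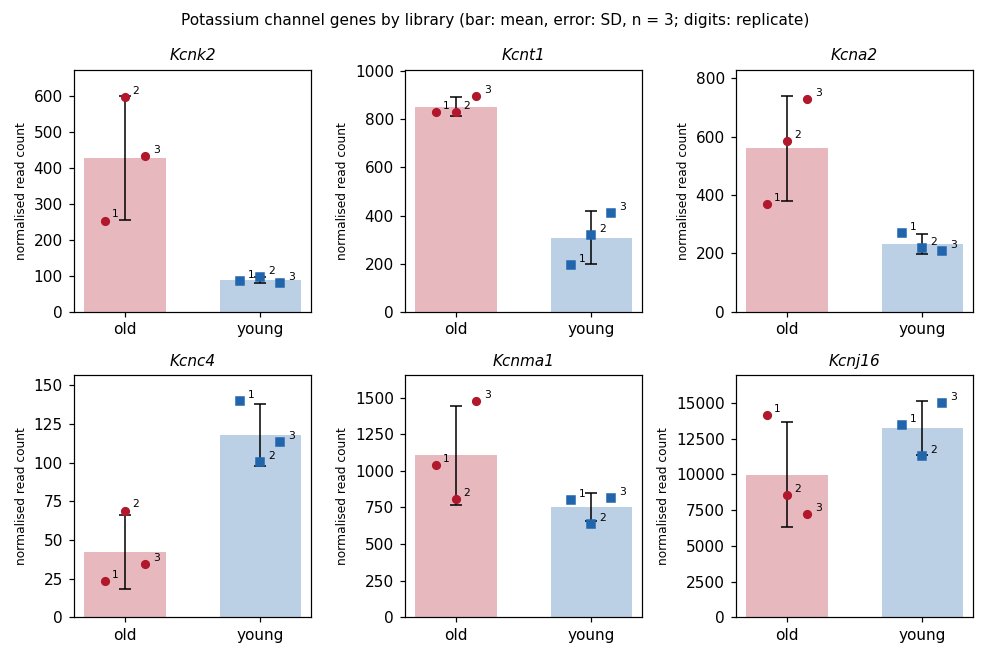
Normalised read counts of Kcnk2, Kcnt1, Kcna2, Kcnc4, Kcnma1 and Kcnj16 in each library, with bars at the group means, error bars of 1 SD (n = 3 mice per group) and digits for the replicate. The old and young points of Kcnk2, Kcnt1, Kcna2 and Kcnc4 do not overlap, whereas old replicate 2 of Kcnma1 (806) lies below the highest young value (813) and old replicate 1 of Kcnj16 (14131) lies among the young values.

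Of the 24 voltage-gated pore genes, 1 rose, 2 fell and 21 did not pass the test, and the median log2 fold change was -0.18. Of all genes, 2.71% were called higher and 2.55% lower. Kcna2, a delayed rectifier of the zones beside the nodes of myelinated axons, stood at 370.4, 583 and 728 in old replicates 1, 2 and 3, against 271, 218 and 206 in young replicates 1, 2 and 3. All old libraries lay above the young ones, with old replicate 1 the lowest of the old. The log2 fold change was 1.23 ± 0.25 (SE; 95% interval 0.67 to 1.78; limma adjusted p = 0.0254), and the old mean was 2.42 times the young mean. The call was lost without old replicate 3 (limma adjusted p = 0.0597), young replicate 2 (0.0999) or young replicate 3 (0.114) and in limma without trend and robust variance (0.0922), and 12 of the 18 alternatives called it. With old replicate 1 as the only old library the log2 fold change was 0.69 (adjusted p = 0.186), the highest of a range that began at 4.5e-05.

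Kcnc4, a fast-inactivating channel of neurons and skeletal muscle, stood at 23.3, 69.0 and 34.6 in old replicates 1, 2 and 3, against 139.5, 101 and 113 in young replicates 1, 2 and 3. Old replicate 2 was the highest of the old libraries and still below the young ones. The log2 fold change was -1.58 ± 0.38 (SE; 95% interval -2.45 to -0.72; limma adjusted p = 0.0479), and the old mean was 35.9% of the young mean. It was the call nearest the threshold: it was lost in 5 of the 6 analyses that left out 1 library (every one but that without old replicate 2) and in edgeR (adjusted p = 0.0699), and 7 of the 18 alternatives called it, in a range of 0.00640 to 0.164. The summed level of 10 skeletal muscle markers was also lower in every old library, at 120.1 to 221, against 378 to 584 in the young libraries. Of the 10, 2 were called lower, and Acta1, Myh1 and Myh2 were at 0 in some library. Mylpf, Myh4 and Ckm overlapped between the groups, and Mylpf in old replicate 1 (61.1) was above every young library (45.1, 41.5 and 52.1). The part of muscle in the Kcnc4 value was not tested.

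The promoters of the called genes are shown because these genes moved in opposite directions. RefSeq windows on GRCm38.p6, 250 bases before to 50 after a start, were found for 41 of the 55 genes (62 windows), and for Kcna2, Kcnc4 and Kcnk2 among those called. Below are the windows of Kcna2 and Kcnc4 and the 1 of 4 Kcnk2 windows that holds a GC box. Capitals mark the GC box, searched as GGGCGG on either strand.
Kcnk2, chr1:189343658-189343957, minus strand: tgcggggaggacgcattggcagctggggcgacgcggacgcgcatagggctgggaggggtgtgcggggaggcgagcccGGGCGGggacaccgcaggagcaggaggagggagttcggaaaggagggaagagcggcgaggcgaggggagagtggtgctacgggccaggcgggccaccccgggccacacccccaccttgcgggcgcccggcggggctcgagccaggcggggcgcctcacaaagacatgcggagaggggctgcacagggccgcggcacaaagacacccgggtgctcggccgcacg
Kcna2, chr3:107101317-107101616, plus strand: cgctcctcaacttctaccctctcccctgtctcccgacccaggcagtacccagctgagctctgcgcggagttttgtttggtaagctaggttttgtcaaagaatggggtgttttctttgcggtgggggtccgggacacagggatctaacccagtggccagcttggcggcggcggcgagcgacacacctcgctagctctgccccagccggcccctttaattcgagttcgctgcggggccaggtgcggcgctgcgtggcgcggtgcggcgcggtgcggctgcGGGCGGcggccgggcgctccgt
Kcnc4, chr3:107458849-107459148, minus strand: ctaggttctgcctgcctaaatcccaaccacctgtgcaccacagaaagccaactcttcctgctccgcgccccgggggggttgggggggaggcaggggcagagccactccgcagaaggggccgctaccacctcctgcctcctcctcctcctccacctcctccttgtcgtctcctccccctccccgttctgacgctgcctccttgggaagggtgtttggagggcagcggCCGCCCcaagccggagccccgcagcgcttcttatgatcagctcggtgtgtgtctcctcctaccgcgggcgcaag
A GC box was present in 25 of the 62 windows of the channel genes (40.3%), and in 35.7% of all 32851 windows of this length. TATAAA, searched on both strands, was in none of the 6 windows of these 3 genes, in 5 of the 62 (8.06%) and in 13.6% of all windows. CCAAT, also on both strands, was in 20 of the 62 (32.3%) and in 37.4% of all. The windows of Kcna2 and Kcnc4 both had 66.7% G and C, where the median of all windows was 52.7%. The printed Kcnk2 window, picked because it holds a GC box, had 74.7%, and the other Kcnk2 windows had 43%, 54.7% and 68.7%. Kcna2, which rose, and Kcnc4, which fell, lie on opposite strands of chromosome 3 with 323 kb between them (107101146 to 107115005 and 107438303 to 107459552 on GRCm38), and Kcna10 lies between them with a log2 fold change of 1.42 (limma adjusted p = 0.240). Kcnk2 lies on chromosome 1 (189207930 to 189402273), and Kcnt1 (25863734 to 25918273) on chromosome 2.

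The other 5 genes of the Kcna subfamily did not pass the test. Kcna1, which pairs with Kcna2 in axons, varied widely, at 55.3, 878 and 608 in old replicates 1, 2 and 3, against 181, 39.4 and 25.5 in young replicates 1, 2 and 3. Old replicates 2 and 3 were the highest of the 6 libraries and old replicate 1 lay below young replicate 1. Its log2 fold change was 2.42 ± 1.19 (SE; 95% interval -0.43 to 5.28; limma adjusted p = 0.306). Without old replicate 1 it was 3.66 (limma adjusted p = 0.0469), and with that library as the only old one it was -0.05. Kcna10, expressed in hair cells, Kcna6, Kcna5 and Kcna4, which are delayed rectifiers or, for Kcna4, a rapidly inactivating channel, had log2 fold changes of 1.42, 1.28, -0.25 and -0.98 (limma adjusted p from 0.181 to 0.765). Summed markers of hair cells overlapped between the groups, at 867 to 2815 in the old libraries and 1055 to 2063 in the young ones, with 0 of 8 called by limma and none at 0.

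Kcnc1, a rapidly activating channel of fast-firing neurons, had a large log2 fold change that did not pass. Kcnc1 stood at 15.5, 144 and 191 in old replicates 1, 2 and 3, against 14.7, 31.1 and 6.13 in young replicates 1, 2 and 3. Only old replicates 2 and 3 were above the young range, and the log2 fold change was 2.33 ± 0.97 (SE; 95% interval 0.06 to 4.61; limma adjusted p = 0.225). Without old replicate 1 it was called, at 3.45 (limma adjusted p = 0.0156), and over the 18 alternatives the adjusted p ranged from 0.00562 to 0.963. Kcnq5, a subunit of the M current found in brain and smooth muscle, lay above young in every old library, at 71.7, 83.2 and 62.5 in the old libraries, against 46.2, 48.7 and 31.7 in the young ones, with a log2 fold change of 0.78 ± 0.28 (SE; 95% interval 0.14 to 1.42; limma adjusted p = 0.156). Kcnq3 had -0.46 (limma adjusted p = 0.634).

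The following voltage-gated genes did not pass either. Kcns3, a silent subunit that modifies other voltage-gated channels, stood at 123, 159.8 and 183 in the old libraries, against 255, 193 and 183 in the young ones, with the old libraries below the young ones, though old replicate 3 and young replicate 3 were nearly equal. The change between the ages was -0.44 ± 0.22 (SE; 95% interval -0.94 to 0.06; limma adjusted p = 0.299). Kcng4, another silent subunit, stood at 286, 512 and 281 in the old libraries, against 275, 229 and 266 in the young ones, where old replicate 2 was far above the rest and old replicates 1 and 3 only just above the young libraries. Old minus young on the log2 scale was 0.43 ± 0.24 (SE; 95% interval -0.12 to 0.97; limma adjusted p = 0.349). Kcnh2, the channel that repolarises the heart muscle, had its lowest value in old replicate 1, and its log2 fold change was -0.29 (limma adjusted p = 0.746). Kcnd3, a pore subunit of the transient outward current, had 0.99 (adjusted p = 0.240 in limma), with values of 27.1, 53.9 and 71.1 in the old libraries, against 36.7, 16.6 and 20.4 in the young ones. Kcnb2, Kcnc2, Kcnd1, Kcnh1, Kcnh8 and Kcns1 had log2 fold changes from -0.72 to 0.49 and limma adjusted p-values from 0.357 to 0.730.

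None of the 10 auxiliary subunit genes passed in limma or edgeR, 4 had an unadjusted p under 0.05, and DESeq2 called 2 of them higher. The log2 fold changes of the auxiliary genes were positive in 9 of 10, with a median of 0.48, where the median over all genes was -0.00. Kcnip1, a calcium-binding partner of Kcnd channels, stood at 8.73, 19.9 and 36.5 in old replicates 1, 2 and 3, against 5.25, 1.04 and 1.02 in young replicates 1, 2 and 3. All old libraries were above the young ones, but the gene was near the detection limit in young replicates 2 and 3, with 1 read each, so its log2 fold change of 2.74 ± 0.68 (SE; 95% interval 1.20 to 4.27; limma adjusted p = 0.0530) depends on the pseudocount, and was 1.27 with a pseudocount of 10 and 3.30 with 0.1. Kcnab2, a beta subunit of axonal Kcna channels, stood at 132, 336 and 588 in old replicates 1, 2 and 3, against 107, 138 and 77.6 in young replicates 1, 2 and 3. Old replicate 1 lay within the young range and the other 2 old libraries above it, and the log2 fold change was 1.49 ± 0.50 (SE; 95% interval 0.34 to 2.65; limma adjusted p = 0.140). Both were called by DESeq2 (adjusted p = 0.0190 and 0.00253), with adjusted p-values from 0.0190 to 0.418 for Kcnip1 and from 0.00252 to 0.693 for Kcnab2 over the 18 alternatives.

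Kcnip3, a calcium-binding protein that also acts as a transcriptional repressor, was above young in every old library, at 342, 235 and 376 in the old libraries, against 216, 223 and 150.1 in the young ones. Its log2 fold change was 0.68 ± 0.24 (SE; 95% interval 0.15 to 1.22; limma adjusted p = 0.140). Kcnab1 overlapped between the groups, at 2362, 1589.6 and 3019.8 in the old libraries, against 2243, 1924 and 2267 in the young ones, with the highest and the lowest value both in old libraries and a log2 fold change of 0.07 ± 0.21 (SE; 95% interval -0.41 to 0.55; limma adjusted p = 0.887). Kcne4, which inhibits Kcnq1 channels in expression systems, had 0.13 (limma adjusted p = 0.832). Kcnmb1, the large-conductance channel's subunit in smooth muscle, had 1.21 (adjusted p = 0.195 in limma), and the pericyte and smooth muscle markers overlapped between the groups, at 15930 to 23054 in old and 19115 to 20153 in young. Kcnmb4, Kcnip2, Kcnip4 and Kcnab3 had log2 fold changes from -0.07 to 0.54 and limma adjusted p-values from 0.460 to 0.889.

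None of the 8 inward rectifier genes passed in limma or edgeR. An unadjusted limma p under 0.05 was found for 1 of the 8, where 21.3% of all genes had one. DESeq2 called that gene lower, where it called 5.03% of all genes lower. The median log2 fold change of the 8 genes was -0.27. Kcnj16 stood at 14131, 8559.8 and 7198 in old replicates 1, 2 and 3, against 13424, 11262 and 14999 in young replicates 1, 2 and 3. Old replicate 1 fell among the young libraries, and old replicates 2 and 3 were below all of them. The log2 difference between ages was -0.46 ± 0.24 (SE; 95% interval -1.003 to 0.08; limma adjusted p = 0.310). Without old replicate 1 it was called lower (-0.74, limma adjusted p = 0.0297), with old replicate 1 as the only old library the log2 fold change was 0.11, and the adjusted p ranged from 0.0297 to 0.787 over the 18 alternatives. The summed markers of spindle and root cells stood in the same order in the old libraries, at 65364, 47510 and 31138 in old replicates 1, 2 and 3, and at 57576, 47722 and 55229 in young replicates 1, 2 and 3, with 0 of 6 called and none at 0. Among these 6 markers, Anxa1 lay above every young library in all old ones, and Lgr5 lay below every young library. The part of spindle and root cells in the Kcnj16 value was not tested.

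Kcnj13 stood at 1748, 1846 and 2786 in old replicates 1, 2 and 3, against 4190.1, 1331 and 1467 in young replicates 1, 2 and 3. Young replicate 1 was the highest of the 6 libraries and the other 2 young libraries were the lowest, so all old libraries lay within the young range. In the fit the log2 fold change was 0.05 ± 0.45 (SE; 95% interval -1.04 to 1.13; limma adjusted p = 0.968). Without young replicate 1 it was 0.57 (limma adjusted p = 0.167), and over the 18 alternatives the adjusted p ranged from 0.167 to 0.970. Kcnj13 lies on chromosome 1 (87386363 to 87394729 on GRCm38) and overlaps Gigyf2: 623 of its 1270 exon bases are shared with exons of that gene, whose mean was 2286 in old and 2159.6 in young, so reads of the 2 cannot be told apart in those bases without strand.

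Kcnj12, a strong inward rectifier of heart and skeletal muscle, was the inward rectifier nearest to a call. It stood at 18.4, 34.0 and 28.8 in old replicates 1, 2 and 3, against 57.7, 65.3 and 66.4 in young replicates 1, 2 and 3, with every old library below every young one. Its log2 fold change was -1.23 ± 0.32 (SE; 95% interval -1.94 to -0.52; limma adjusted p = 0.0595), and 6 of the 18 alternatives called it lower, DESeq2 among them (adjusted p = 0.0232), in a range of 0.0232 to 0.222. The skeletal muscle markers given beside Kcnc4 were lower in every old library as a sum, though Mylpf, Myh4 and Ckm overlapped between the groups. The part of muscle in the Kcnj12 value was not tested. Kcnj8, the pore of the ATP-sensitive channel of pericytes, and Kcnj2, a strong rectifier of vessels and muscle, overlapped between the groups, with log2 fold changes of 0.42 and 0.00 (limma adjusted p = 0.606 and 0.999). Kcnj2 neighbours Kcnj16 on chromosome 11, with 38.2 kb between them. Kcnj9, Kcnj11 and Kcnj15 had log2 fold changes of -0.07, -0.59 and -0.48 (limma adjusted p = 0.955, 0.603 and 0.306), and Kcnq1ot1, which silences the Kcnq1 domain of the paternal chromosome, 0.30 (adjusted p = 0.466 in limma).

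The old libraries differed among themselves more than the young ones in most of these genes. The median SD of log2 values was 0.54 in old and 0.32 in young over the 55 genes, and 0.20 in old and 0.15 in young over the 15234 genes that averaged 10 or more. The SD was larger in old for 42 of the 55 (76.4%), where this held for 61.5% of those 15234. The sets were not matched for level, and 28 of the 55 had a mean under 100, so the SDs are not compared at equal levels. The median deviation of the 55 genes from the young mean was -0.10, 0.24 and 0.50 on the log2 scale in old replicates 1, 2 and 3. In 18 of the 55 genes (32.7%) old replicates 2 and 3 each lay above the other 4 libraries, a pattern chosen after the values were seen. This held for 9.99% of all 17091 genes, to which no minimum mean was applied. The 18 include Kcna6 and Kcnip1, which reached a mean of 10 through the old group alone. The 2 shares are thus not of like sets, and the count only describes the genes chosen.

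Among the 18 genes were Kcna1, Kcna2, Kcna6, Kcna10, Kcnab2, Kcnc1, Kcnd3, Kcnip1, Kcnip4, Kcnj8, Kcnk2, Kcnk13, Kcnmb1, Kcnmb4, Kcns1 and Kcnt1. Old replicate 2 was only just above old replicate 1 in Kcnt1 (829, 831 and 899 in old replicates 1, 2 and 3) and in Kcnk13 (34.9, 37.8 and 60.5). The summed level of neuron markers was also highest in old replicates 2 and 3. The sum of 11 neuron markers was 1052, 8250 and 8848 in old replicates 1, 2 and 3, against 1157, 1105 and 655 in young replicates 1, 2 and 3. None of the 11 was at 0 in any library, and limma called 2 of them higher and 1 lower. Markers of Schwann cells and glia, 10 genes, summed to 40305, 47286 and 54746 in old replicates 1, 2 and 3, against 33147, 36873 and 32172 in young replicates 1, 2 and 3.

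In old replicate 1 the sum of the neuron markers lay within the young range, but the markers differed. Of the 11, 3 lay above every young library (Prph, Slc17a7 and Stmn2), 2 below (Tubb3 and Syt1) and 6 within the young range. Slc17a7 and Stmn2 are the 2 markers called higher over all old libraries and Syt1 the one called lower. Stmn2, a protein of growing neurites, stood at 169.7 in old replicate 1, against 53.5, 46.7 and 15.3 in the young libraries, and the sum for Schwann cells and glia was also above every young library there. Relative to the young mean, old replicate 1 had 2.91 times the level for Kcnk2, 2.69 times for Kcnt1 and 1.60 times for Kcna2. The part of neuronal and glial RNA in the values of Kcnk2, Kcnt1, Kcna2, Kcna1, Kcnc1, Kcnab2 and the rest was not tested.

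**Figure D4:**
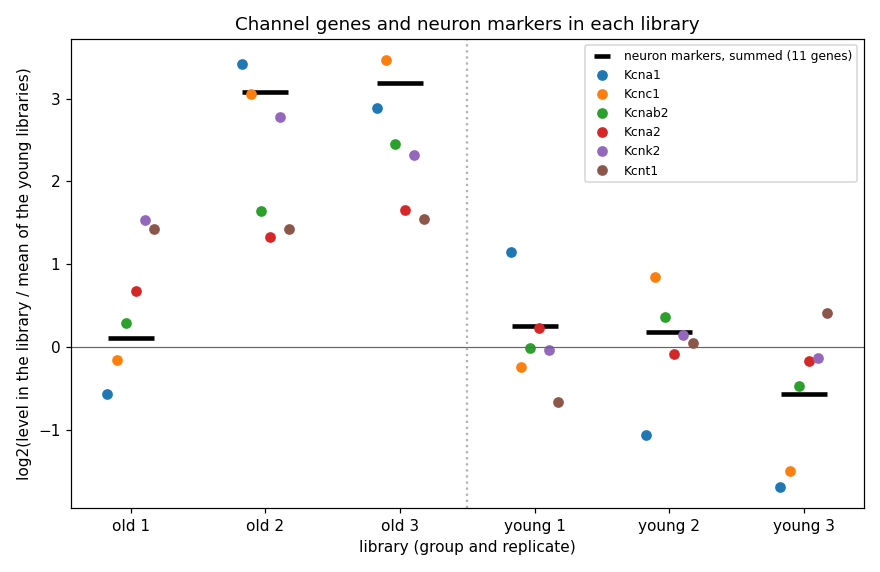
Level of 6 channel genes (coloured points) and of the summed markers of neurons (black bars, 11 genes) in each library, as the log2 ratio to the mean of the 3 young libraries. In old replicate 1 the summed neuron markers and Kcna1 and Kcnc1 lie at about the young level while Kcnk2 and Kcnt1 lie above it, and in old replicates 2 and 3 all of them lie above it.

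Genes for proteins that bind or modify these channels were described by a list of 23, which includes the sulfonylurea receptors Abcc8 and Abcc9, the Kcnd partners Dpp6 and Dpp10, the Kcnma1 gamma subunits and proteins of axonal Kcna complexes. None was called by limma, where 5.25% of all genes were called in either direction, or by edgeR. At an unadjusted limma p under 0.05, 7 passed (5 higher and 2 lower), where 21.3% of all genes did. The median log2 fold change was 0.06. DESeq2 and the authors' deposited table each called 4 higher, Cntn2, Dpp6 and Lrrc55 among them, where each called 5.82% of all genes higher. Cntn2, an adhesion protein that holds Kcna1 and Kcna2 beside the nodes, stood at 19.4, 39.7 and 74.0 in the old libraries, against 11.5, 8.30 and 10.2 in the young ones, with a log2 fold change of 1.86 ± 0.49 (SE; 95% interval 0.75 to 2.97; limma adjusted p = 0.0659). Lrrc55, a gamma subunit of the Kcnma1 channel, stood at 13.6, 93.6 and 105 in the old libraries, against 3.15, 19.7 and 8.17 in the young ones, with old replicate 1 in the young range and the other 2 above it. In 8 of the 23 genes old replicates 2 and 3 each lay above the other 4 libraries, Cntn2, Dpp6 and Lrrc55 among them. This pattern, chosen after the values were seen, held for 9.99% of all genes.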

How the data were processed

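Per the labels' protocols, the library kit was TruSeq RNA, and no source used here states whether strand was kept. The submitters' processing notes list Partek, TopHat2, DESeq2 and the build mm10, with no roles. The authors deposited 1 table of 17091 genes whose value per library is a signal, the read count divided by a size factor of the library. Dividing by the step of the low values gave numbers within 0.1 of a whole read in 99.9% of values. For old against young the authors deposited p-values, step-up adjusted ones (absent for 332 genes) and a signed fold change, a score in which a fall is minus the inverse ratio.

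Old and young were compared with limma 3.58.1 in R 4.3.3 (trend and robust variance, pseudocount 1, no filter), which suits normalised values, with a threshold of 0.05 on p-values adjusted over the whole table. Log2 fold changes on this scale understate changes of genes with few reads. Each sample is a separate mouse, and every pair of libraries differed beyond sampling noise. An exact permutation test of 3 against 3 cannot go below 0.1, so none was run. The members and lists were chosen with earlier results of these data known. Named genes are those called, Kcnk2, Kcnma1, Kcnj13 and Kcnj16, the 8 highest means, the 5 largest rises and falls without overlap among means of at least 50, and the top of each subfamily, and Kcna1, Kcnc1, Kcnab2, Kcnip1, Kcnj12 and Kcnq1ot1 were added after their values were seen. A few members and partner genes are counted but not reported here. Exon lengths and positions came from GENCODE M21 (GRCm38, the assembly of mm10), which matched all 55. Of the 55, 20 share exon bases with another gene. Alternatives were quantile and TMM scaling, pseudocounts of 0.1 and 10, a mean of at least 10, limma without trend, the replicate number as a block, each library left out, edgeR 4.0.16 and DESeq2 1.42.0 on recovered reads, the authors' table, a threshold of 0.01 and narrower member lists, and, added after seeing the data, old replicate 1 as the only old library, where the young libraries alone give the spread.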

Additional observations from a re-analysis of the deposited data

How the results depend on the processing

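Of the channel genes, 3 were called higher and 2 lower. The number called higher was 1 in limma without trend and robust variance, 1 with old replicate 1 as the only old library (chosen after seeing the data, with that mouse assumed to vary like the young ones), 1 at a threshold of 0.01, 7 in DESeq2, 7 in the authors' deposited table, and 2 to 8 when a library was left out, 8 without old replicate 1. The number called lower was 4 with quantile scaling, 4 in DESeq2, 4 in the authors' deposited table, 1 with a pseudocount of 0.1, 1 with a mean of at least 10, 1 without trend, 1 in edgeR with either TMM or DESeq2 size factors, 0 at a threshold of 0.01, and 0 to 3 when a library was left out, 0 without young replicate 2 or young replicate 3. Of the partner genes, limma called 0 higher, against 1 with a pseudocount of 10, 4 in DESeq2, 4 in the authors' deposited table, and 0 to 4 when a library was left out, 4 without old replicate 1. The cause of these differences was not tested. The median log2 fold change of the channel genes, 0.13, ranged from -0.06 to 0.34 when a library was left out and was -0.10 with old replicate 1 alone.

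The replicate numbers did not pair the mice: deviations of same-numbered mice correlated at -0.244, -0.0965 and -0.0879. With the replicate block, 406 genes were called in all, against 898 without it, among them 2 channel genes higher (Kcnk2 and Kcnt1, but not Kcna2, at an adjusted p of 0.0685) and 0 lower, and 1 partner gene higher.

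Among genes not called, signs reversed as follows. Kcnj13 (0.05) had -0.12 and -0.13 in edgeR, -0.13 in DESeq2, -0.14 in the authors' deposited table, -0.20 with old replicate 1 alone and -0.25 to 0.57 when a library was left out. With old replicate 1 alone, Kcnj16 had 0.11, Kcnk5 0.071, Kcna1 -0.045 and Kcne4 -0.29, and with quantile scaling Kcne4 had -0.0096. When a library was left out, Kcnab1 ranged from -0.14 to 0.32, Kcne4 from -0.13 to 0.34 and Kcnh2 from -0.78 to 0.12. The cause was not tested. Over all alternatives the following ranges also crossed 0: Kcna5 from -0.54 to 0.12, Kcnab3 from -0.34 to 0.066, Kcnh1 from -0.015 to 0.50, Kcnh8 from -1.49 to 0.068, Kcnip2 from -0.41 to 0.56, Kcnip4 from -0.096 to 0.66, Kcnj2 from -0.13 to 0.22, Kcnj8 from -0.48 to 0.86, Kcnj9 from -0.79 to 0.28, Kcnj11 from -1.86 to 0.046, Kcnj15 from -0.73 to 0.016, Kcnmb4 from -0.28 to 0.96, Kcns1 from -0.35 to 0.92, Kcne1 from -0.18 to 0.071 and Kcnj10 from -0.31 to 0.17. In all, 21 of the 55 channel genes changed sign under some alternative, and 0 of the 5 called ones did. The limit of depth is plainest for Kcnip1, with 1 read in each of 2 young libraries.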

Other observations

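The 21 genes of the same pattern with a mean under 10 were left out of the report. None was called by limma, edgeR or DESeq2. An unadjusted limma p under 0.05 was found for 3 of the 21, all with more reads in old, where 21.3% of all genes had one. Summed over the 3 old and the 3 young libraries, Kcnj3, a subunit of the G-protein-gated rectifier, had 34 reads in old and 10 in young, Kcna3, known from lymphocytes and macrophages, 31 and 12, and Kcnmb2, a subunit of the Kcnma1 channel, 33 and 7. Kcnh5 had 18 reads in old, most of them in old replicate 3, and 1 in young.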
